A study of Mus musculus with 6 samples.

Results

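The neuroendocrine cells of cultured mouse tracheal epithelium were the 163 of 23871 deposited cells that the authors had named Neuroendocrine in their table of 16 cell types. They made up 0.683% of all cells (exact 95% binomial interval 0.582 to 0.796, counting error only), and among the 16 types fewer cells were held only by Multiciliated4 (146) and the ionocytes (28). Droplet single-cell RNA-Seq had been run on epithelial cells of the trachea kept at air-liquid interface, a culture in which the apical side faces air and basal stem cells form the other cell types. There were 6 mice on a C57BL/6 background, each 12 weeks old. The 3 WT/WT mice carried 2 wild-type copies of Dnaaf5, a factor needed to assemble the dynein motors of cilia, and the 3 MIS/MIS mice carried the edited missense allele of Dnaaf5 on both chromosomes. Since the cells had expanded and differentiated in culture, without nerves or other tissue, they stand for what the tracheal epithelium forms under these conditions. In the files the WT/WT mice are numbered 1, 2 and 3 and the MIS/MIS mice are named MUT1301, MUT1306 and MUT1383.

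Pulmonary neuroendocrine cells are rare epithelial cells of the airway that sense oxygen, stretch and irritants, and they answer by releasing peptides and amines. Peptide precursors are packed with granins into dense-core vesicles, cut there by prohormone convertases, and released when calcium entry makes the vesicle fuse with the membrane. Notch signalling and its target Hes1 hold back the neuroendocrine fate in neighbouring cells. Calca encodes calcitonin and the calcitonin gene-related peptide, and Chga encodes chromogranin A. Both are common markers of this cell type.

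Chga was found in all 163 labelled cells and Calca in 132 of them. Values are counts of unique molecular identifiers (UMIs), each standing for 1 captured RNA molecule. To compare levels, the UMIs of a gene were scaled to 1000000 UMIs of the summed cells (CPM). The 163 cells held 1993922 UMIs in all, with a median of 10351 UMIs and 3735 genes per cell. Medians of the other 15 types lay between 10197 and 42984.5 UMIs per cell. In 6 of 6 mice the median of the neuroendocrine cells was below that of the mouse's remaining cells, with ratios from 0.409 to 0.558. Fewer RNA molecules per cell and less efficient capture cannot be told apart here. Of 11 neuroendocrine markers, among them Chga, Calca, Chgb, Scg2, Scg5, Pcsk1, Insm1, Syp, Uchl1 and Resp18, the labelled cells held a median of 10 and at least 6. Among the 23708 other cells, 95.9% held none and 4 held 3 or more. The cells coincided with 1 of the finer clusters in the authors' table, in which no other cell lay. Between libraries, 67 cell barcodes were shared, none of them among the neuroendocrine cells.

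The number of neuroendocrine cells differed widely between mice, and 1 MIS/MIS mouse gave most of them. WT/WT mice 1, 2 and 3 had 6, 17 and 19 cells, and MIS/MIS mice MUT1301, MUT1306 and MUT1383 had 8, 5 and 108. As a share of the mouse's own cells this was 0.211%, 0.351% and 0.686% in the WT/WT mice and 0.198%, 0.187% and 1.61% in the MIS/MIS mice. Mouse MUT1383 stood above all other mice, with an exact 95% interval of 1.32% to 1.94%, and held 66.3% of the labelled cells. The other MIS/MIS mice were both below all 3 WT/WT mice, and their intervals overlapped those of WT/WT mice 1 and 2. The interval of mouse MUT1306 (0.0608% to 0.436%) also overlapped that of WT/WT mouse 3 (0.413% to 1.07%). WT/WT mice averaged 0.416% ± 0.244 and MIS/MIS mice 0.665% ± 0.818 (SD, 3 mice per genotype). The difference of 0.249 percentage points lay within the spread between mice (p = 1 by an exact two-sided permutation test, which cannot go below 0.1 with these numbers). Without mouse MUT1383 the difference was -0.223 percentage points, so its direction rested on that mouse. Mouse MUT1383 also had 19 of the 28 ionocytes and the lowest UMI depth, with a median of 21521 in its other cells against 27544 to 35467 in the other mice, and the part of these in its share was not tested.

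**Figure D1:**
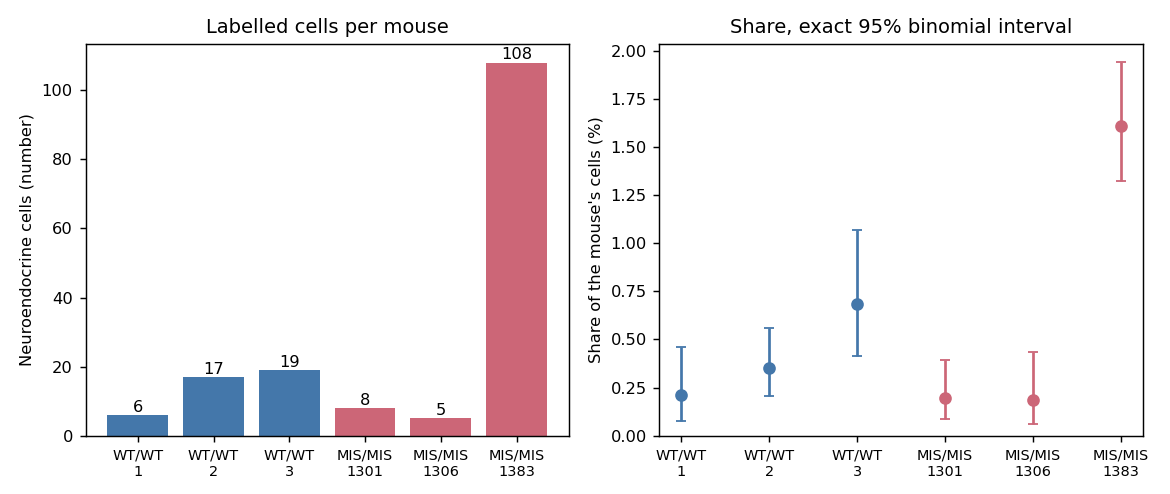
Labelled neuroendocrine cells per mouse (left, number of cells) and their share of all deposited cells of the mouse (right, percent, with exact 95% binomial intervals); blue stands for WT/WT and red for MIS/MIS mice. Of the 6 mice, 5 sit at or below 0.686%, and MIS/MIS mouse MUT1383 sits at 1.61%.

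The leading genes of the cells included those of granins, convertases and parts of the release machinery, beside others such as the chemokine gene Cxcl13. The cell type had been found by clustering the same cells, so its levels against the other types are a description, with no test. The 30 genes that stood farthest above the next highest type had log2 ratios from 6.77 to 10.88, with 1 CPM added to both levels, and 22 of them were under 1 CPM in every other type. The next gene in order, just outside the 30, had a log2 ratio of 6.77 at the same rounding. In order, they included Chga, Cxcl13, Calca, Scg2, Scg5, Pcsk1, Chgb, Olfm1, Resp18, Ddc, Runx1t1, Ccn3, Scn9a, Insm1, Neto1, St18, Spock3, Pkib, Elavl4, Scg3, Tcerg1l, Ly6h, Tmem45b, Snap25, Pcsk2, Uchl1, Sox1, Syt4 and Rab3c. Of the 30, 29 had UMIs in neuroendocrine cells of all 6 mice, the exception being Pcsk2 with 5. Of all 20483 genes, 18.5% were highest in the neuroendocrine cells (with over 3 UMIs there) and 1.49% were at least 8-fold above the next type with 1 CPM added, and the counts below stand beside these background shares.

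**Figure D2:**
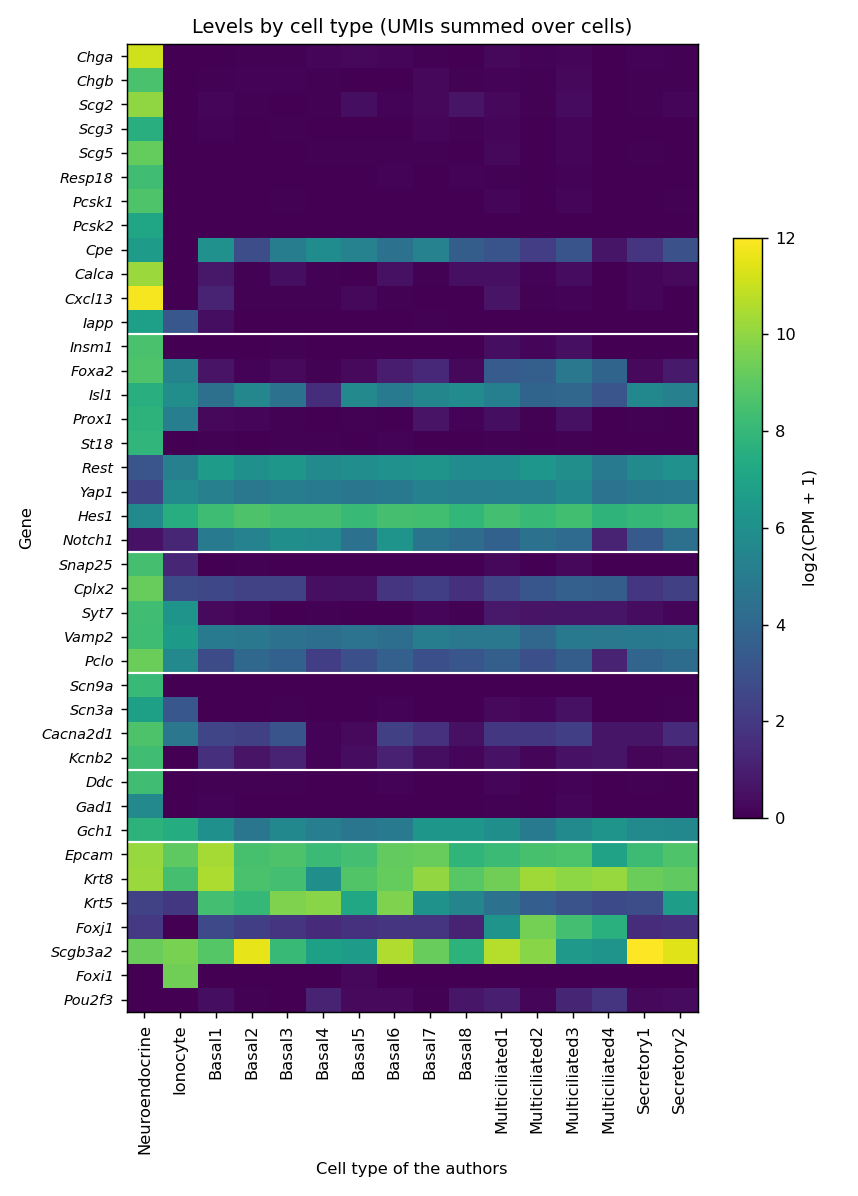
Levels of 40 genes (rows, grouped by role with white lines) in the 16 cell types of the authors (columns), as log2(CPM + 1) of UMIs summed over the cells of the type. Granins, convertases, Insm1 and Snap25 are bright in the neuroendocrine column, Rest, Yap1, Hes1 and Notch1 are darker there, Notch1 also in ionocytes and Multiciliated4, and Epcam and Krt8 are bright in neuroendocrine and other epithelial columns alike.

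Granins, the acidic proteins that fill dense-core vesicles, and their partners were the group most set apart. Of 13 listed genes, 12 were highest in the neuroendocrine cells and 10 stood at least 8-fold above the next type. Chga had 2275, 2034 and 2240 CPM in WT/WT mice 1, 2 and 3 and 2496, 2638 and 2223 CPM in MIS/MIS mice MUT1301, MUT1306 and MUT1383. Its levels lay close together in all 6 mice (2318 ± 215 CPM, SD, n = 6), and the genotypes overlapped. Every labelled cell held between 2 and 102 Chga UMIs, whereas 51 of the 23708 other cells (0.215%) held any and none more than 4. With each cell thinned to 5000 UMIs, so that depth is equal, 98.2% of neuroendocrine cells had a Chga UMI (exact 95% interval 94.7 to 99.6), against at most 0.169% of the cells of any other type. The source of the few UMIs in types that should lack the gene was not tested. Chga lies on chromosome 12 from 102554941 to 102565027 (GRCm38.p6, from RefSeq).

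Chgb, the second chromogranin, had 369 CPM over all labelled cells against 0.190 CPM in the next type, and Scg2, the precursor of secretoneurin, had 1044 CPM against 0.557. Scg3, which binds chromogranin A to the vesicle membrane, had 188 CPM. Scg5, the chaperone of the convertase PC2, had 566 CPM and was found in 151 of the 163 cells. Dner, a Notch ligand of neurons placed in this list, had 311 CPM against 1.87 in the next type. The insulinoma antigens of the vesicle membrane, Ptprn and Ptprn2, had 83.8 and 44.6 CPM. Vgf was near the floor with 10 UMIs, and Cd63, a membrane protein of many vesicles, was eighth of the 16 types at 782 CPM. So only Cd63 of the 13 was higher elsewhere.

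The promoters of Chga, Chgb, Scg2 and the convertase gene Pcsk1, all among the 8 leading genes, are shown for a short sequence that they share. The cyclic AMP response element, TGACGTCA, binds factors of the CREB family, and its core TGACGT is found alone in other promoters. Promoters came from RefSeq (GRCm38.p6), and the 250 bases before the annotated start were searched on both strands. The stretches below are 30 bases around the element, written 5′ to 3′ on the strand of the gene, with the element or its core in capitals.
Chga: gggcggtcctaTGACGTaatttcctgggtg
Chgb: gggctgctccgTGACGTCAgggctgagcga
Scg2: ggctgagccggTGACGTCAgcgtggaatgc
Pcsk1: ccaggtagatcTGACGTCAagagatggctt
They lie at chr12:102554886-102554915 on the plus strand, chr2:132781559-132781588 on the plus strand, chr1:79440076-79440105 on the minus strand and chr13:75089768-75089797 on the plus strand. The element began 44, 72, 68 and 78 bases before the start in Chga, Chgb, Scg2 and Pcsk1. In Chgb and Scg2 the stretch overlaps an exon annotated for the same gene on the same strand. Among the 20 of the 30 leading genes with a promoter in the table, the whole element was in 3 (Scg2, Pcsk1 and Chgb) and the core, which the whole element contains, in 6. Of 27025 genes with a promoter, 1.77% held the whole element and 7.29% the core. Of the 13 granin and vesicle genes, 12 had a promoter in the table, and the core was in 5 (Chga, Chgb, Scg2, Scg5 and Cd63). The E-box CAGCTG, which belongs to the sequences that basic helix-loop-helix factors bind, was in 7 of the 20 and in 14.7% of all. The 150 bases before the start of Chga hold both the E-box and the core, printed here in capitals (chr12:102554791-102554940, plus strand).
Chga promoter: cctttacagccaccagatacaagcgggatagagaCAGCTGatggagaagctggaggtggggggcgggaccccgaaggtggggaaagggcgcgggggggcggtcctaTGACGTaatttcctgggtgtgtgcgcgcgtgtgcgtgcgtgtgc
These matches describe letters only, and binding was not measured.

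Among peptide hormones and neuropeptides, few genes were detected. Of 38 listed genes in the table, 24 had 0 UMIs in the neuroendocrine cells, which allows up to 1.5 CPM (3 counts of all their UMIs), and 5 had 20 CPM or more. The 5 were Calca, Iapp, Gal, Adm and Igfbp5. Calca had 1432, 1456 and 1530 CPM in WT/WT mice 1, 2 and 3 and 2222, 1607 and 817 CPM in MIS/MIS mice MUT1301, MUT1306 and MUT1383. The WT/WT mice lay within the range of the MIS/MIS mice, whose highest and lowest levels were the extremes of the 6. Calca was found in 132 of 163 cells and, after thinning, in 72.4% (64.9 to 79.1), against at most 0.514% in any other type. Its sister gene Calcb had 9 UMIs (4.51 CPM) and was highest in Basal1, at 118 CPM. Igfbp5, a binding protein of insulin-like growth factors, had 2480 CPM, next to 2432 in Multiciliated3, and Adm, adrenomedullin, was lower than in most types at 42.1 CPM. Tac1, Npy, Cck, Ghrl, Crh and Penk were among the genes at 0 UMIs. A further 18 listed peptide genes were not analysed here.

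Of 14 peptide processing enzymes, 5 were highest in the cells and 2, the prohormone convertases Pcsk1 and Pcsk2, stood at least 8-fold above the next type. Pcsk1 had 817, 385 and 497 CPM in the WT/WT mice and 340, 434 and 373 CPM in MIS/MIS mice MUT1301, MUT1306 and MUT1383, with overlap between the genotypes. It was found in 154 cells. Pcsk2 was found in 63 cells and varied more between mice, from 0 CPM in mouse MUT1301 to 474 CPM in WT/WT mouse 1. Cpe, the carboxypeptidase that trims the cut ends, had 95.8 CPM, close to Basal1 at 66.7. Pam, which amidates peptides, had 257 CPM and was higher in ionocytes at 1224.

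Beside the peptides stood genes of secreted proteins that are not classical hormones. Cxcl13, a chemokine that draws B cells, had 5262, 1308 and 6491 CPM in the WT/WT mice and 4378, 1114 and 3200 CPM in MIS/MIS mice MUT1301, MUT1306 and MUT1383. Levels varied about as much within each genotype as over all mice (3626 ± 2159 CPM, SD, n = 6). The next highest type for Cxcl13 was Basal1, at 1.21 CPM. Ccn3, a matricellular protein, was found in all 163 cells at 3120 CPM, against 10.1 CPM in Multiciliated3. Olfm1, a secreted olfactomedin of neurons, had 589 CPM in 159 cells, and Spock3, a secreted proteoglycan, had 247 CPM.

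**Figure D3:**
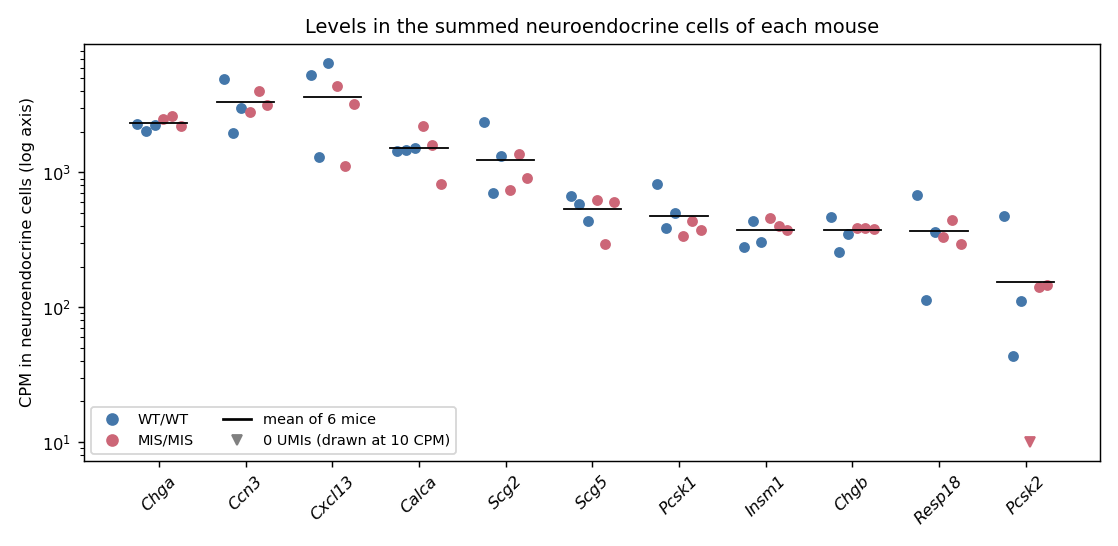
CPM (log axis) of 11 genes in the summed neuroendocrine cells of each mouse, blue for WT/WT and red for MIS/MIS, with the mean of the 6 mice as a black line; a triangle drawn at 10 CPM marks 0 UMIs. Chga lies within a narrow range, whereas Cxcl13 and Pcsk2 spread widely within each genotype.

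Transcription factors of endocrine cells were found at a wide range of levels. Of 26 listed factors in the table, 13 were highest in the neuroendocrine cells and 7 stood at least 8-fold above the next type, among them the zinc-finger factors Insm1, St18, Myt1 and Scrt1, the ETS factor Fev, and Foxa2. Insm1, which drives endocrine differentiation, had 281, 433 and 305 CPM in the WT/WT mice and 456, 399 and 375 CPM in MIS/MIS mice MUT1301, MUT1306 and MUT1383 (375 ± 69.5 CPM, SD, n = 6). The genotypes overlapped, with WT/WT mouse 2 within the range of the MIS/MIS mice. Insm1 was found in 157 cells and, after thinning, in 85.3% (78.9 to 90.3), against at most 0.295% in any other type. Fev and Scrt1 had 19.1 and 16 CPM and were seen in 27 and 29 cells.

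Several factors, Foxa2 among them, were also found in other types. Foxa2 and Prox1 had 409 and 218 CPM, with ionocytes next at 40.4 and 34.6 CPM. Isl1, a homeodomain factor of many endocrine cells, had 187 CPM, against 60.6 CPM in ionocytes. Nkx2-1, the lung and thyroid factor, was at 117 CPM beside 114 CPM in ionocytes. Hes6, which counters Hes1, and Sox2, the airway progenitor factor, were at 309 and 285 CPM and had their highest levels in multiciliated types. Sox1 and Runx1t1, in no list but among the 30 leading genes, had 163 and 374 CPM. The next type for both, Multiciliated1, had 0.286 and 0.312 CPM. The ionocyte values rest on only 28 cells.

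Low levels were found for several regulators, of which Rest, Yap1, Wwtr1 and Hes1 belong to 15 genes chosen after their values were seen. Rest, the repressor of neuronal genes, had 8.02 CPM (16 UMIs in 10 cells), the lowest of the 16 types, which reached 98.1 CPM. Yap1, the transcriptional effector of the Hippo pathway, had 4.51 CPM against 22.7 CPM in the next lowest type, and Wwtr1, its paralogue, had 5.02 CPM against 21.5 CPM. Hes1 had 50.7 CPM against 174 to 394 CPM in the other types. These were the lowest levels among the 16 types for each of the genes. The 15 had the largest deficit against even the lowest other type, at 20 CPM or more there, and also included Pdlim1, Eya2, Rbm47, Phlda1, S100a10, Id1 and Rnd3. All 15 were at 58.7 CPM or less in neuroendocrine cells.

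Of 29 genes of Notch, Slit-Robo and Hedgehog signalling in the table, 6 were highest in the neuroendocrine cells. That share of 20.7% was near the 18.5% of all genes. At least 8-fold above the next type stood 3 (10.3%, beside 1.49% of all genes). Dll3, an inhibitory Notch ligand, had 46.6 CPM in 63 cells, with 1.40 CPM in the next type, and Dll4 had 17.6 CPM against 0.914. Mfng, a glycosyltransferase acting on Notch, had 15 CPM. Jag1, a Notch ligand, was in contrast at 7.02 CPM and was highest in ionocytes at 147. Notch1, a receptor, had 1 UMI, which is under the floor of 3. It was also low in Multiciliated4 (1.23 CPM) and ionocytes (1.44 CPM), and reached 72.0 CPM in Basal6. Hey1, a Notch target, had 9 UMIs. Robo1 and Robo2, receptors that help these cells cluster in the developing lung, had 71.2 and 25.1 CPM and were highest here, while their ligand gene Slit2 had 5 UMIs. Shh had 0 UMIs.

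The machinery of regulated vesicle fusion was broadly present. Of 48 listed genes in the table, 31 were highest in the neuroendocrine cells and 14 stood at least 8-fold above the next type. Snap25, a SNARE protein of the plasma membrane, had 348 CPM in 156 cells, against 1.44 CPM in ionocytes. Vamp2, the SNARE of the vesicle, had 312 CPM. Calcium sensors were Syt7 at 314 CPM, Syt4 at 123 and Syt1 at 75.2. Cplx2, a complexin, was found in all 163 cells at 586 CPM, whereas Cplx1 had 0 UMIs. Piccolo (Pclo), a scaffold of the release site, had 639 CPM, and Cadps and Cadps2, which prime dense-core vesicles, had 53.7 and 175. Synaptophysin (Syp), a common stain for these cells, had 93.3 CPM and was found in 105 cells. Ionocytes were next highest for Vamp2 (90.8 CPM), Syt7 (73.5) and Pclo (49.0). They were also next for Snap25, but at a level near the limit of detection in that type.

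Ion channels that make a cell excitable were found with a wide range of levels. Of 65 listed channel and receptor genes in the table, 30 were highest in the cells and 16 stood at least 8-fold above the next type. The sodium channel Scn9a had 273 CPM in 149 cells, against 0.0285 CPM in the next type, and Scn3a had 113. Calcium channel subunits included Cacna2d1 at 405 CPM, Cacna1a at 123 and Cacna1b at 39.6. Kcnb2 and Kcnc1, potassium channels, had 321 and 103 CPM. The stretch-activated channel Piezo2 had 75 UMIs in 16 cells, from all 6 mice. Piezo1, Trpv4 and the calcium-sensing receptor Casr had 4, 2 and 7 UMIs.

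Genes of amine and transmitter synthesis gave a mixed picture. Of 23 in the table, 7 were highest in the cells and 2 at least 8-fold above the next type. These 2 were Ddc, the aromatic amino acid decarboxylase, at 315 CPM in 140 cells, and Gad1, which makes GABA, at 48.6 CPM in 52 cells. Tph1, the first enzyme of serotonin synthesis outside the brain, had 22 UMIs in 10 cells, spread over all 6 mice. Tph2 had 0 UMIs, and the vesicular monoamine transporters Slc18a1 and Slc18a2 had 8 and 6. Gch1 and Pts, which supply the cofactor of such enzymes, had 214 and 160 CPM, beside highest levels elsewhere of 170 CPM in ionocytes and 221 CPM in a multiciliated type.

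Neuronal adhesion, cytoskeleton and RNA-binding genes were highest in the cells for 41 of 59, and 21 stood at least 8-fold above the next type. Uchl1, known as PGP9.5, had 466 CPM in 162 cells. The RNA-binding proteins Elavl4 and Celf4 had 206 and 362 CPM, and Srrm4, a splicing factor of neuronal exons, had 67.2 CPM. Ncam1, a cell adhesion protein often stained in these cells, had 245 CPM. Peripherin (Prph), a marker of ganglion neurons, had 5 UMIs, and Rbfox3, which marks mature neurons, had 0. At the same time the cells were epithelial. All 14 listed epithelial genes were at 20 CPM or more, with Epcam at 1123, Krt8 at 1180 and Krt18 at 1010 CPM, and none of the 14 was highest or 8-fold higher in this type. Across 9743 genes at 20 CPM or more in some type, profiles were compared by Pearson correlation of log2(CPM + 1). The correlation ran from 0.726 with ionocytes to 0.554 with Multiciliated4. Basal2 (0.719) and Secretory2 (0.717) were close to the ionocytes, whose profile rests on 28 cells. These values are a description over genes, which are not independent.

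Beside the neuroendocrine genes, markers of other cell types ranged from 0 UMIs to high levels in a few cells. Ionocyte markers summed to 0.502 CPM (Foxi1, Ascl3 and Atp6v0d2 at 0 UMIs), against 2829 CPM in ionocytes. Tuft cell markers summed to 7.52 CPM with Pou2f3 at 0, cycling markers to 1.5 CPM with Mki67 and Ccnb1 at 0. Mesenchymal markers summed to 21.6 CPM, all of it Dcn (43 UMIs, 24 of them in mouse MUT1306, where the sum was 281 CPM), with Col1a1, Col3a1 and Lum at 0 and 222 CPM in ionocytes, the highest other type. Glial markers summed to 8.53 CPM, above every other type (at most 3.99), with Sox10 at 0. Immune markers summed to 234 CPM, all of it Lyz2, with Ptprc and Cd3e at 0. The part of these in the other results was not tested. Basal markers summed to 185 CPM, most of it Krt15 (170), against up to 7612 CPM in basal types, and the 6 multiciliated markers to 87.3 CPM. The 6 secretory markers summed to 2477 CPM, between 174 CPM in mouse MUT1301 and 6140 CPM in WT/WT mouse 2, against 66571 CPM in Secretory1. Most of this came from few cells. The median cell held 0.0348% of its UMIs in these 6 genes, 5 cells held over 1%, and 1 cell with 1563 Reg3g UMIs held 55.7% of all Reg3g. In each mouse the median neuroendocrine cell had a lower secretory share than the lowest basal type of that mouse. The share of the summed neuroendocrine cells was above that type in WT/WT mouse 2 (0.614% against 0.127%) and mouse MUT1383 (0.298% against 0.0797%). In the other mice it was below. Lyz2 was similar, with 96.1% of its UMIs in 10 cells. Doublets were not called here. No neuroendocrine cell had over 7500 genes, the upper limit in the methods, which 655 of all deposited cells exceeded. With a median of 3735 genes per neuroendocrine cell, a doublet could stay under that limit. There were 3 cells that the authors named otherwise but that held at least as many marker UMIs as the poorest labelled cell (37). Of these, 2 were multiciliated cells of mouse MUT1383 with 10 and 11 of the 11 markers, and 1 was a Basal1 cell of WT/WT mouse 3 with 1 marker.

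The 10 genes whose pattern over the 16 types was most like that of Chga, among those at 20 CPM or more, included Ddc, St8sia5, Fam155a, Prox1os, Scg5, Tcerg1l, Slc38a5, Fgf14 and Elavl4. Their Pearson correlations of log2(CPM + 1) with Chga all rounded to 1.00 over 16 types, a measure that here reflects presence in 1 type and low levels in the other 15. Of the 10, 4 were among the 30 leading genes. The types share libraries and differ in depth, and Prox1os is the antisense transcript of Prox1.

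Within the cell type, Calca and Cxcl13 varied more between cells than Chga or Insm1 did. The index used was the variance of a gene's UMIs around the number expected from each cell's depth, divided by the variance that counting alone gives. At an equal relative spread it is larger for a gene of higher level, so it does not strictly rank genes of unlike level. In the 108 cells of mouse MUT1383 its median was 1.12 over 3558 genes with at least 100 UMIs in all 163 cells. It was 1.89 for Insm1, 8.97 for Chga, 9.74 for Scg2, 10.1 for Igfbp5, 22.3 for Calca, 22.6 for Iapp and 74.9 for Cxcl13. In these cells Insm1 had 421 UMIs, Calca 916, Chga 2493 and Cxcl13 3589. The value for Iapp rests on 61 UMIs in 9 cells, 40 of them in 1 cell. Over all 163 cells, Calca ranged from 0 to 11520 CPM per cell with a median of 448, and Cxcl13 from 0 to 31760 CPM with a median of 923. For Chga the range was 124 to 7561 CPM. Reg3g (450), Lyz2 (85.3) and Scgb3a2 (64.8), markers of other types, also had high indices.

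Depth differed in both directions between cells with and without Calca. Over all mice, the 132 cells with a Calca UMI had a median of 10412 UMIs and the 31 without had 10206. Those without came from 3 mice. The medians without and with a Calca UMI were 13509 and 11274 UMIs in WT/WT mouse 2 (2 of 17 cells without), 15928.5 and 16134 in WT/WT mouse 3 (4 of 19) and 9964 and 9359 in mouse MUT1383 (25 of 108). All 31 cells without Calca held Chga. Both Calca and Cxcl13 were found in 108 cells, Calca alone in 24, Cxcl13 alone in 21 and neither in 10. Across the cells of mouse MUT1383, the gene with the highest Spearman correlation with Calca was Tanc2 (0.48) and with Cxcl13 it was Pcsk2 (0.44), over 108 cells of 1 library and as a description. Piezo2 was seen in 16 cells, all of which held Calca, as did 132 of all 163 labelled cells. Whether this overlap exceeds chance was not tested.

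Iapp and Gal, the precursors of amylin and galanin, were confined to few cells. Iapp was found in 15 cells, with 18 UMIs in WT/WT mouse 1, 138 in WT/WT mouse 3 and 61 in mouse MUT1383, and none in the other mice. Of these UMIs, 129 came from 1 cell of WT/WT mouse 3, which held no Calca. Gal was found in 4 cells, 2 in WT/WT mouse 3 and 2 in mouse MUT1383, and 2 of them also held Iapp. No cell held both Iapp and Piezo2. With 15 and 16 of the 163 cells, these numbers are too small to tell separate groups of cells from chance. With 5 to 19 cells in the other mice, a transcript this rare could have been missed there.

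**Figure D4:**
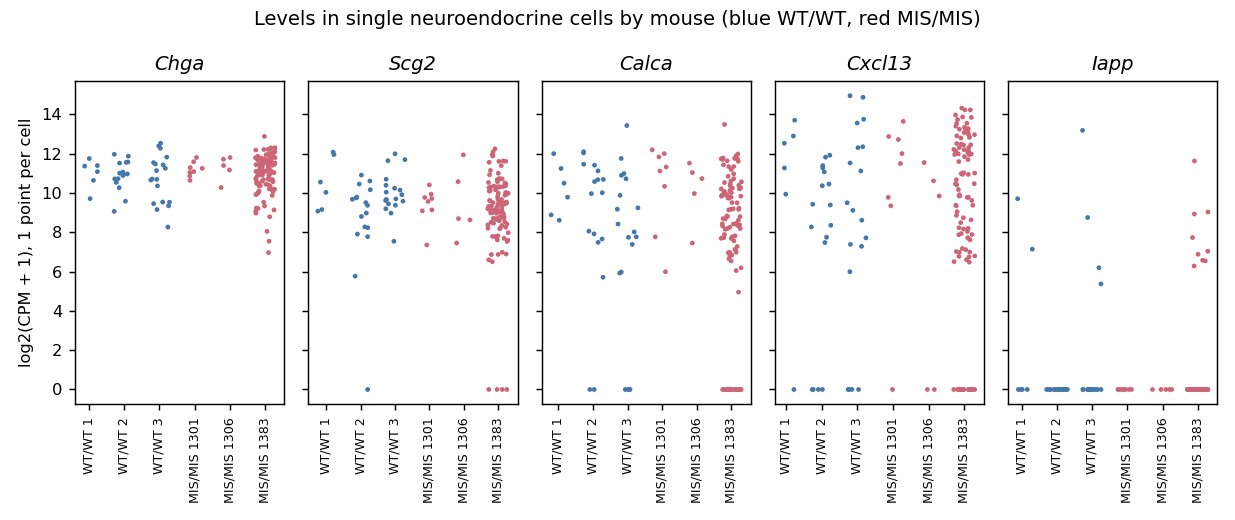
log2(CPM + 1) of 5 genes in each of the 163 neuroendocrine cells, 1 point per cell, by mouse (blue WT/WT, red MIS/MIS). Chga is present in every cell, Cxcl13 has cells at 0 in all 6 mice and Calca in 3 of them, and Iapp is above 0 in 15 cells.

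To ask whether the Dnaaf5 genotype was associated with a different expression in neuroendocrine cells, UMIs were summed per mouse and the 3 MIS/MIS mice were compared with the 3 WT/WT mice. No gene passed. At an adjusted p under 0.05 (limma's voom test, Benjamini-Hochberg adjustment over all genes tested), 0 of 3337 genes were called (0%), and 181 genes (5.42%) had an unadjusted p under 0.05, of which 84 were higher and 97 lower in MIS/MIS mice. limma-trend also called 0, with 125 genes at an unadjusted p under 0.05. CPM of the genotypes did not overlap for 316 of the tested genes (9.47%). The sums held between 85278 UMIs in mouse MUT1306, from 5 cells, and 1121418 in mouse MUT1383.

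In none of the gene lists was a gene called. The 10 granin and vesicle genes tested had a median log2 fold change of 0.16, with 8 higher and 2 lower in MIS/MIS mice, beside a median of -0.00033 over all 3337 tested genes, of which 1666 were higher. For 10 transcription factors it was 0.12 (7 higher), for 17 vesicle fusion genes 0.048 (10 higher), for 12 channel genes 0.13 (7 higher), for 27 neuronal genes 0.12 (17 higher) and for 11 epithelial genes -0.021 (4 higher). The smaller lists gave -0.11 for 5 peptide processing enzymes (2 higher), 0.36 for 4 amine and transmitter genes (4 higher), 0.0033 for 2 peptide genes (1 higher) and 0.23 for 2 Notch, Slit-Robo and Hedgehog genes (2 higher). Calca overlapped between the genotypes, with means of 1473 ± 51.1 and 1548 ± 704 CPM in WT/WT and MIS/MIS mice (SD, n = 3 each; exact permutation p = 0.7).

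The genes of lowest p were, by direction, Ddc, Sox1 and mt-Nd3 and Egr3, Ppp1r15a and Fos, and none passed. Ddc had 202, 140 and 188 CPM in the WT/WT mice and 315, 223 and 406 CPM in MIS/MIS mice MUT1301, MUT1306 and MUT1383. The genotypes did not overlap, although mouse MUT1306 was near WT/WT mouse 1. The log2 fold change of Ddc was 1.06 (SE 0.21, adjusted p = 0.278 from limma's voom test). Sox1, a neural transcription factor, had 105, 122 and 77.1 CPM against 182, 164 and 201 CPM. That was a log2 fold change of 1.03 (SE 0.21, adjusted p = 0.278), also without overlap. Both genes were under 1 CPM in the other cells of every mouse.

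A further 3 genes that respond quickly to stimuli or stress were at the other end. Ppp1r15a, a phosphatase subunit of the stress response, had 141, 109 and 142 CPM in the WT/WT mice and 49.7, 46.9 and 60.6 CPM in the MIS/MIS mice (log2 fold change -1.10, SE 0.21, adjusted p = 0.278 from limma). Fos, an immediate early gene, had 430, 573 and 586 CPM against 357, 387 and 287 CPM (log2 fold change -0.73, SE 0.16, adjusted p = 0.468). For both genes all WT/WT mice lay above all MIS/MIS mice. In the remaining cells of the same mice the genotypes overlapped, with Ppp1r15a between 121 and 155 CPM and Fos between 403 and 511 CPM. Egr3, another immediate early gene, had 79.1, 56.9 and 61.7 CPM against 66.3, 11.7 and 15.2 CPM, so mouse MUT1301 overlapped the WT/WT mice (log2 fold change -1.82, SE 0.35, adjusted p = 0.278).

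The mitochondrial transcript mt-Nd3 had 1564, 1496 and 1536 CPM in the WT/WT mice and 1758, 2978 and 2257 CPM in MIS/MIS mice. Its log2 fold change was 0.60 (SE 0.15, adjusted p = 0.744 from limma). For mt-Nd3 the genotypes overlapped in the remaining cells, where the WT/WT mice had 1988, 1548 and 1689 CPM. MIS/MIS mice MUT1301, MUT1306 and MUT1383 had 1829, 2534 and 1803 CPM there, so mouse MUT1306 was highest in both. Together the 13 mitochondrial genes took 9.65%, 9.46% and 8.29% of the neuroendocrine UMIs of the WT/WT mice and 10.9%, 13% and 10.2% of those of MIS/MIS mice MUT1301, MUT1306 and MUT1383. These shares did not overlap (exact permutation p = 0.1, the smallest possible). In the remaining cells they overlapped, at 10.5% to 12.1% in WT/WT and 10.7% to 11.4% in MIS/MIS mice. The mitochondrial share is also a sign of cell quality, and its part in the gene differences was not tested.

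Dnaaf5 itself was close to the limit of detection in these cells. It had 2, 6 and 4 UMIs in the WT/WT mice and 3, 0 and 7 in MIS/MIS mice MUT1301, MUT1306 and MUT1383. Wdfy1, which encodes an endosomal adaptor of Toll-like receptor signalling, had 0, 1 and 8 UMIs in the WT/WT and 8, 3 and 65 in the MIS/MIS mice. As CPM this was 0, 4.37 and 24.7 against 66.3, 35.2 and 58.0, without overlap (means 9.68 ± 13.2 and 53.2 ± 16.1, SD, n = 3 each; exact permutation p = 0.1). Both genes were below the count needed for limma's test. In the remaining cells Dnaaf5 had 9.84 to 13.6 CPM in WT/WT and 15.2 to 21.3 CPM in MIS/MIS mice, without overlap, whereas in the neuroendocrine cells the means were 18.7 ± 7.02 and 10.4 ± 12.9 CPM (exact permutation p = 0.4). Wdfy1 had, in the remaining cells, 20.1 to 26.5 CPM in WT/WT and 69.9 to 92.1 CPM in MIS/MIS mice.

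**Figure D5:**
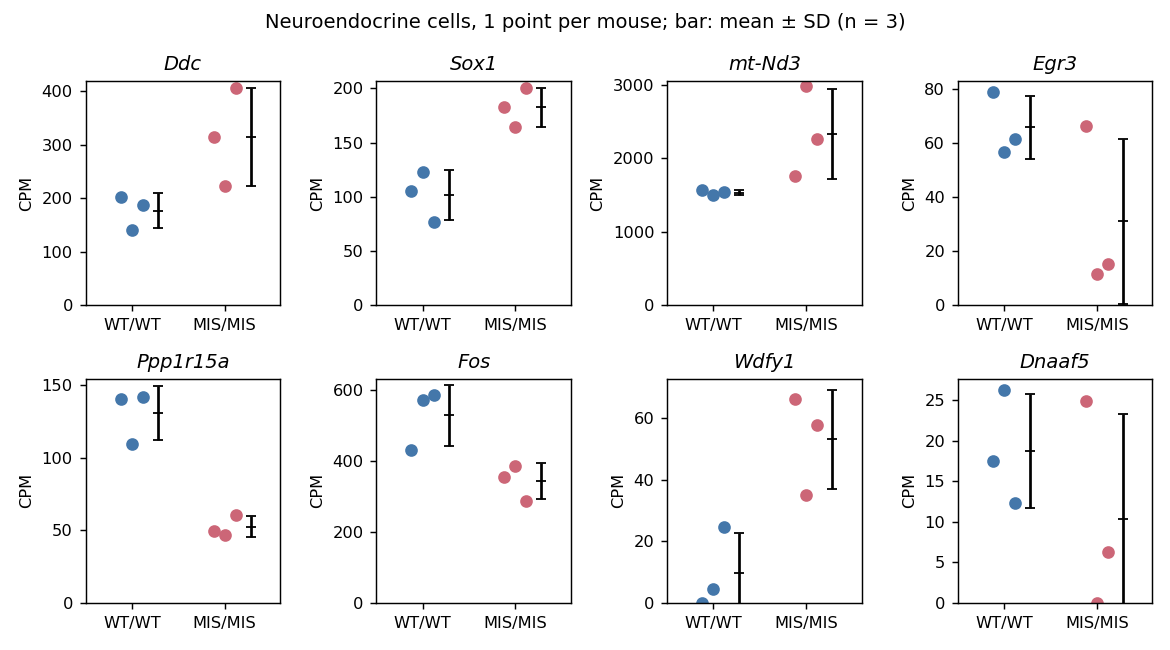
CPM in the summed neuroendocrine cells of each mouse (1 point per mouse; bars give mean ± SD, n = 3 per genotype) for the 6 genes of lowest p and for Wdfy1 and Dnaaf5. WT/WT and MIS/MIS points do not overlap for Ddc, Sox1, mt-Nd3, Ppp1r15a, Fos and Wdfy1, and they overlap for Egr3 and Dnaaf5.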

How the data were processed

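Droplet libraries (10x Genomics) of 6 mice were processed by the authors with Cell Ranger (version 7.1.0 in the submitters' processing notes) on mm10 and filtered, clustered and named in Seurat. The deposited table holds raw UMI counts of 20483 genes in 23871 cells, written with a mistyped separator. Cells were taken by the authors' label. Counts were summed per type and mouse, and thinned to 5000 UMIs per cell for detection. Genotypes were compared over mice with limma 3.58.1 (R 4.3.3; voom, own TMM factors with trims of 0.3 and 0.05; genes with 10 counts in a median library in 3 mice and 15 in total), other values with exact permutation tests (scipy 1.17.1, Python 3.11.15). A count model was not run because the separator kept the table from being recorded as counts. The members and gene lists were chosen with earlier results of these data known. Named were list genes, the 30 leading genes (at 20 CPM or more and in 3 mice), the 10 most like Chga, the 3 of lowest p per direction, Dnaaf5 and Wdfy1. The MIS/MIS mouse numbers match no sample title, so those mice serve as unnumbered replicates. The test was tried on simulated data. Some of the genes counted in the lists are not reported here.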

Additional observations from a re-analysis of the deposited data

How the results depend on the processing

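No paired analysis was possible because the MIS/MIS libraries carry no number that the labels share with the WT/WT mice. The difference in the share of neuroendocrine cells ranged from -0.223 to 0.488 percentage points with each mouse left out, and was reversed only without MIS/MIS mouse MUT1383 (-0.223). It kept its direction with the stated cell filters (0.243) and among cells that are not multiciliated (0.466). The marker check asked for a UMI of Chga or Calca. Every labelled cell held Chga, so this check could not change the value (0.249). The number of genes called was 5 with no filter on low counts (mt-Co2, mt-Atp6, mt-Co3, mt-Nd3 and mt-Cytb, all higher in MIS/MIS mice, lowest adjusted p = 0.0015 from limma's voom test; the cause was not tested) and 0 under each other alternative, including 0 to 0 with each mouse left out. In the test as reported these 5 had an adjusted p of 0.744. Ddc (log2 fold change 0.72 to 1.33), Sox1 (0.71 to 1.28) and Fos (-1.15 to -0.47) kept their direction and missed the threshold in each of 15 other fits (ranges over fits of summed counts), and mt-Nd3 passed in 1. Egr3 and Ppp1r15a, fitted in 9 and 11, never reversed. Here and in the number of genes called, the fit with the stated cell filters removed no neuroendocrine cell. It could therefore only repeat the test as reported. Adjusted p ranged up to 0.952 for each of the 6 genes. Of genes at least 20 CPM and 8-fold above the next type, 225 were counted, and 218 without mouse MUT1383, of which 196 were shared. The median number of markers per cell was 9 after thinning and 10 with all UMIs. The fit without deep or secretory-rich cells, the fit with sample weights and the levels without mouse MUT1383 were chosen after seeing the data. A fit of mice with at least 15 cells was not run, since 1 MIS/MIS mouse would remain. The sums of 3 of the mice rest on 5 to 8 cells each.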
